A study of Homo sapiens and Mus musculus with 6 samples.

Results

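The immunoglobulin loci of GM12878 cells were examined through their Promoter Capture Hi-C (CHi-C) contacts. GM12878 is a human lymphoblastoid line of B lymphocytes, immortalised with Epstein-Barr virus, and the labels give 3 biological replicates of it with no treatment. CHi-C ligates DNA ends that lie close together in fixed nuclei and then enriches the ligation products for *Hin*dIII fragments that carry promoters, termed baits; the fragment at the far side of a product is the other end. A call is a bait and an other end with a CHiCAGO score of at least 5, the score being a p-value weighted by distance, put on a log scale and shifted so that it starts at 0. The 3 replicates were scored together, so each call has a single read count and a single score, and no spread between replicates can be given. Mouse embryonic stem cell samples of the same study were not used.

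Calls were kept where either end touched chr14:105500000-107300000 around the heavy chain locus (IGH), chr2:88500000-90300000 around the kappa locus (IGK) or chr22:22000000-23500000 around the lambda locus (IGL), in hg19. This gave 350 of the 92929 listed calls, with 44 in the IGH window, 236 in the IGK window and 70 in the IGL window. As background for these counts, 1.12% of the 7740702 possible pairs of a listed bait and another fragment under 1 Mb away were called in GM12878 as a whole. A bait is listed only if it has a call, so this share leaves out captured promoters with none, and a gene without a listed bait may have been captured without a call or not captured at all.

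An immunoglobulin locus holds many variable (V) segments, a few joining (J) segments, in the heavy chain also diversity (D) segments, and constant (C) segments. A developing B cell joins 1 V to a J (through a D in the heavy chain) by V(D)J recombination, and a V promoter is then brought near the enhancers that lie around the constant segments. V promoters carry an octamer bound by the OCT1 and OCT2 factors. Because B cells have cut and rejoined these loci, and the rearranged alleles of this line were not examined here, every distance below is one in the unrearranged order of the reference genome and may not be the distance in the cells.

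The sequences that matter first are those of the V promoters that were captured. The list names baits with V segments in the lambda locus and in neither of the other windows. The octamer, searched as ATGCAAAT on either strand from 250 bases before to 50 bases after an annotated gene start, was found for IGLV3-10, 79 bases before its start, and for IGLV3-9, 13 bases after its start, and not in that window of IGLV2-8. All 3 segments lie on a single bait. The stretches of hg19 around the motif follow, on the gene's strand with the octamer in capitals.
IGLV3-10, chr22:23154139-23154198, plus strand: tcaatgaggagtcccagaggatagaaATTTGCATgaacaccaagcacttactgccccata
IGLV3-9, chr22:23161494-23161553, plus strand: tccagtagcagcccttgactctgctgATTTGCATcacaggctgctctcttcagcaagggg

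The octamer was found for V segments of all 3 loci. It was found for 40 of 47 heavy chain V genes (85.1%), 26 of 44 kappa V genes (59.1%) and 30 of 37 lambda V genes (81.1%), against 1447 of 64449 annotated genes (2.25%). Its orientation split by locus: all 40 heavy chain matches read ATGCAAAT on the gene's strand, and all 26 kappa and 30 lambda matches read ATTTGCAT. Among V pseudogenes it was found for 20 of 81 in IGH, 13 of 32 in IGK and 7 of 36 in IGL. These shares depend on where a segment is annotated to start. IGKV1-12, annotated at chr2:89339721-89340242, had a match. Its distal counterpart IGKV1D-12, annotated over a longer stretch at chr2:90198535-90199190, had none. A segment without a match may therefore hold the octamer outside the searched window. A match is a description of the letters and shows no binding.

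Reads in CHi-C fall near the ends of *Hin*dIII fragments, so the ends of the fragments that carry the main contacts are shown too. Each starts with AGCTT and ends with A, what remains of the cut site, in capitals, and all are on the plus strand of hg19.
Lambda bait with IGLV2-8, lower end, chr22:23151590-23151649: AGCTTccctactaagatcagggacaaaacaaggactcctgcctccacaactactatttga
Lambda bait with IGLV2-8, upper end, chr22:23168094-23168153: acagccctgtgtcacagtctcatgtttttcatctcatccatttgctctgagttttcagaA
Its top-scoring other end, lower end, chr22:23300832-23300891: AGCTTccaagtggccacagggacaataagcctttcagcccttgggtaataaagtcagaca
Its top-scoring other end, upper end, chr22:23302632-23302691: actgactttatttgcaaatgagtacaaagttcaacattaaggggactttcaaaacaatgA
Heavy chain fragment reached from TMEM121, lower end, chr14:106742941-106743000: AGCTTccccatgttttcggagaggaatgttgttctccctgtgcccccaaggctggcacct
Heavy chain fragment reached from TMEM121, upper end, chr14:106750227-106750286: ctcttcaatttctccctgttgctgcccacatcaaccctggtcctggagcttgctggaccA
Kappa fragment reached from AC104134.2, lower end, chr2:89887750-89887809: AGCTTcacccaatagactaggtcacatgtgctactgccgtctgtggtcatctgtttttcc
Kappa fragment reached from AC104134.2, upper end, chr2:89888931-89888990: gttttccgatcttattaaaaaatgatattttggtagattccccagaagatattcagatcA

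The label of the windows held in part for the lambda locus and in small part for the others. Annotated segments spanned 1235 kb in IGH, 1118 kb in IGK and 885 kb in IGL. Calls with an end in that span numbered 3 of 44 in IGH (6.82%, 95% Wilson interval 2.35 to 18.2%), 2 of 236 in IGK (0.847%, 0.233 to 3.04%) and 28 of 70 in IGL (40.0%, 29.3 to 51.7%). These intervals cover counting error only, and calls of the same bait are not independent. The other 41 calls of the IGH window and all but 5 of the other IGK calls lay below the constant segments at both ends, in reference coordinates, among flanking genes and fragments without a gene.

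By segment role, no constant, D or J segment of IGH was on a listed fragment, out of 11, 27 and 9, and 3 of its 127 V segments were on an other end. None of the 82 kappa segments was on a listed fragment. In IGL, 4 of 7 constant segments, 4 of 7 joining segments and 6 of 73 V segments were on a listed fragment, 5 of those V segments on baits. IGLL5, a lambda-like gene that shares exons with the first J and C segments, was on an other end. VPREB1, which encodes a part of the surrogate light chain of precursor B cells and lies among the lambda V segments, was on no listed fragment.

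Sequence uniqueness was low across most of the kappa span and in smaller parts of the others. Within 500 bp of each fragment end, the share of 32-mers found once in hg19 had a median of 23.4% in the kappa span against 93.1% in the rest of its window, and 190 of 246 kappa span fragments (77.2%) were under 50%. A read from such a fragment often cannot be placed. In the heavy chain span the median was 84.0% and in the lambda span 95.04%, against 88.7% and 97.4% in the rest of each window. Fragments under 50% were 41 of 262 in the heavy chain span and 17 of 196 in the lambda span. The constant segments IGHG4, IGHG2, IGHGP, IGHA1, IGHEP1, IGHG1 and IGHG3 lay on fragments averaging 19.6 to 28.4%. IGHD and IGHM lay on fragments averaging 95.3% and 95.2%. Fragments with a call were 3 of 262 in the IGH span, 1 of 247 in the IGK span and 10 of 199 in the IGL span, against 19 of 63, 97 of 197 and 39 of 110 outside it. Every call needs a bait, and listed baits numbered 0 in the IGH span, 0 in the IGK span and 3 in the IGL span. Outside the span they numbered 8, 8 and 7. The parts of bait placement and of sequence uniqueness in these counts were not tested. Gaps in hg19 took 11.1% of the IGK window, 0.581% of the IGH window and none of the IGL window.

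**Figure D1:**
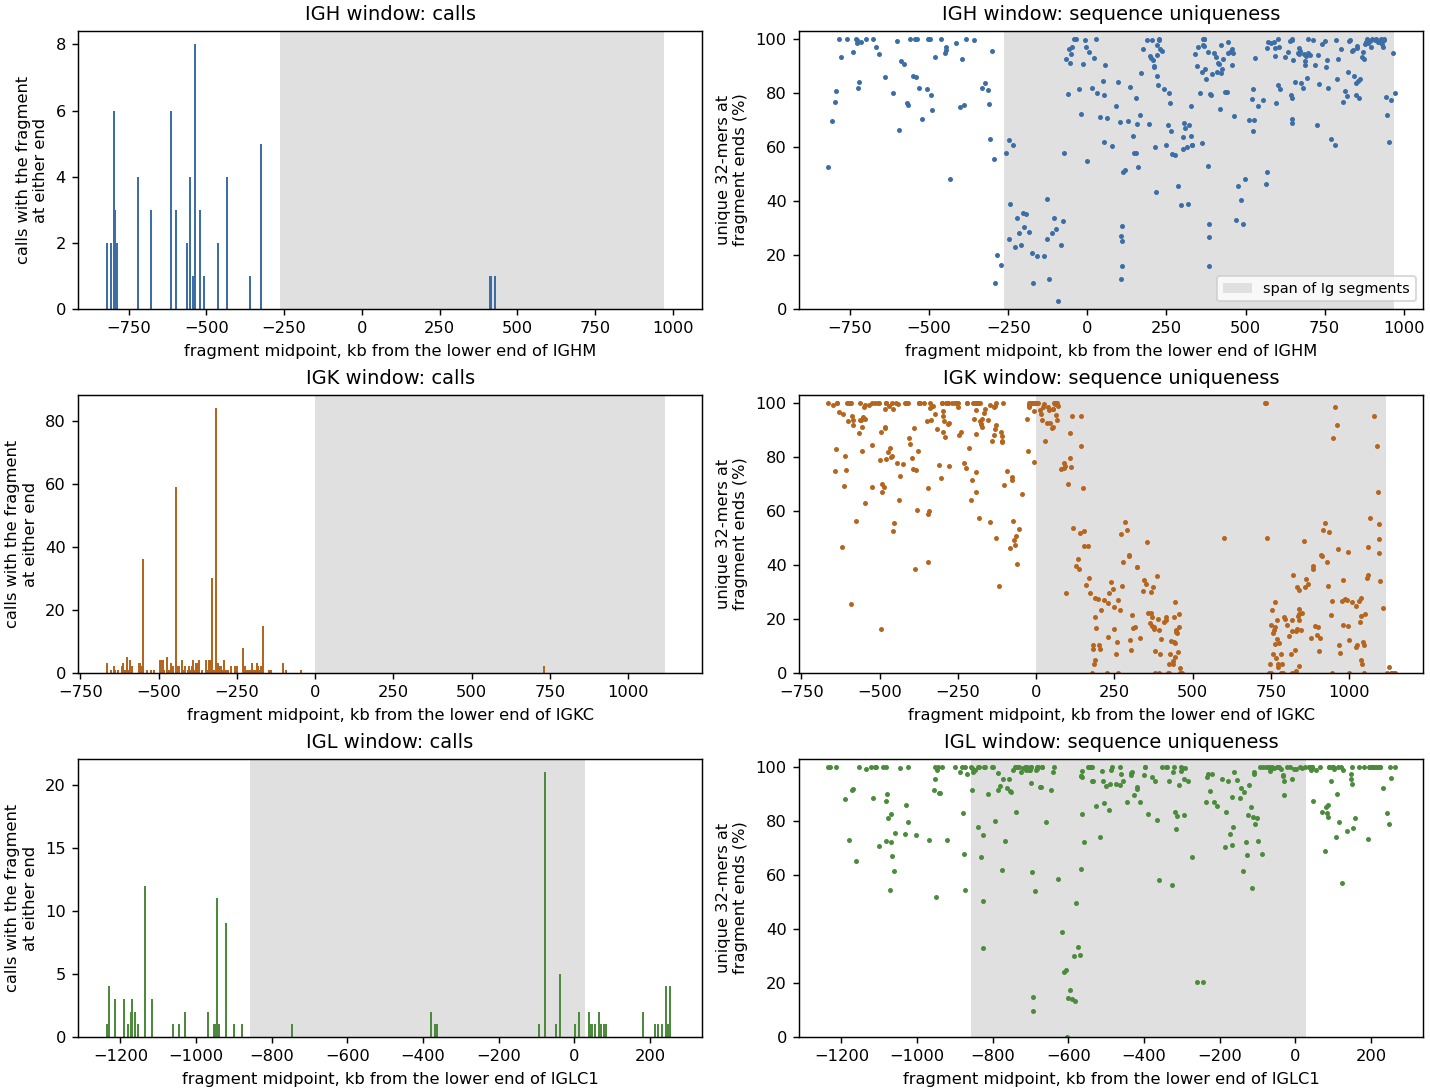
Left, the number of calls with each *Hin*dIII fragment of a window at either end, against the fragment's midpoint in kb from the lower-coordinate end of IGHM, IGKC or IGLC1. Right, the share of 32-mers near the fragment ends that occur once in hg19. Grey marks the span of annotated immunoglobulin segments, which holds 3 of 262 fragments with a call in IGH, 1 of 247 in IGK and 10 of 199 in IGL. Listed baits number 0, 0 and 3 in these spans, against 8, 8 and 7 in the rest of the windows. Unique sequence is scarce in most of the kappa span and in smaller parts of the others.

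Of the 3 windows, the kappa window had the highest share of possible pairs called. Among possible pairs under 1 Mb with an end in the window, 215 of 5455 were called in IGK (3.94%, 95% Wilson interval 3.46 to 4.49%), 44 of 3448 in IGH (1.28%, 0.952 to 1.71%) and 67 of 5083 in IGL (1.32%, 1.04 to 1.67%). Under 100 kb the shares were 18.9% in IGK, 10.2% in IGH and 4.66% in IGL, against 3.78% in all. Between 100 and 250 kb they were 10.5%, 3.94% and 4.65%, against 2.81%. From 500 to 1000 kb, 1 of 2610 possible pairs was called in IGK (0.0383%), 2 of 2912 in IGL (0.0687%) and 4 of 2214 in IGH (0.181%), against 0.150% in all. These last shares rest on few calls, and the intervals of all 3 windows overlap each other and hold the share of all baits. The pooled list gives no replicate error for these differences. A test between them was not made.

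**Figure D2:**
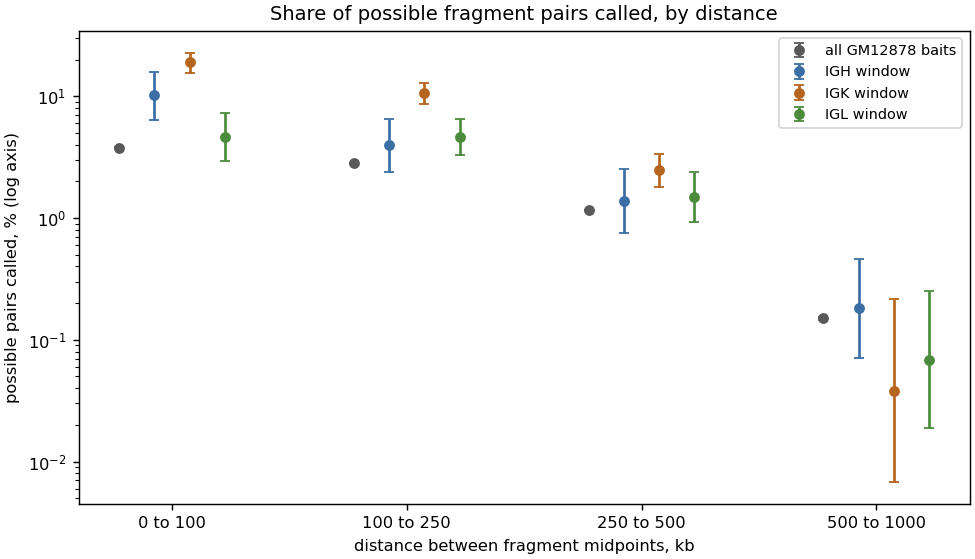
Share of possible pairs of a listed bait and another fragment that were called, on a log axis, by distance class, for all GM12878 baits and for the pairs with an end in each window; bars are 95% Wilson intervals for counting error only. IGK lies above all baits up to 500 kb, at 18.9% against 3.78% under 100 kb, and its interval meets theirs from 500 to 1000 kb.

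Median scores were close across the windows, and median reads ranged more widely. The median score was 6.25 in IGH, 6.90 in IGK, 6.63 in IGL and 6.62 over all calls, and no call of the windows came near the list's highest of 568.59. The median read count was 15 in IGH (range 5 to 50), 9 in IGK (4 to 57) and 19 in IGL (5 to 72), against 16 over all calls. The IGK calls thus rested on fewer reads each, and 112 of the 236 had at least 10. Median distances between fragment midpoints were 137 kb in IGH (95% interval of the median 83.2 to 246 kb), 130 kb in IGK (115 to 144 kb) and 189 kb in IGL (142 to 228 kb), against 174 kb over all calls. Calls whose other end was itself a bait made up 31.8% in IGH, 17.8% in IGK and 18.6% in IGL, against 29.4% in all. Pairs called from both of their ends enter these shares from each end. At a score of at least 10 these were 3 of 4 calls in IGH (75%), 16 of 42 in IGK (38.1%) and 2 of 11 in IGL (18.2%), against 44.7% in all. Those shares rest on few calls, and their differences were not tested. Other ends were reached by 2 or more baits in 13 of 20 cases in IGH (65.0%), 59 of 117 in IGK (50.4%) and 13 of 52 in IGL (25.0%), against 36.6% in all.

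In the lambda locus, the bait at chr22:23151590-23168153, which carries IGLV2-8, IGLV3-9, IGLV3-10 and the microRNA gene MIR650, had 18 calls, the most of any bait in the window. In all, 1119 of 15389 listed baits (7.27%) had as many or more. Of its calls, 17 ran to higher coordinates, the side of the J and C segments, and 1 ran to the side of the other V segments. Within 500 kb it could pair with 105 fragments on either side, and 16.2% (95% Wilson interval 10.4 to 24.4%) were called on the constant side and 0.952% (0.168 to 5.20%) on the other. The median share of unique 32-mers was 99.6% over the 80 fragments measured on the constant side and 93.3% over the 102 on the other.

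Along the locus these 17 calls fell into stretches. The nearest fragment, with the V pseudogene IGLV3-6, had 47 reads and a score of 6.32 at 29.8 kb. The fragment with IGLJ3, IGLC3, IGLJ4 and IGLC4, at chr22:23244476-23254556 and 89.6 kb away, had 33 reads and a score of 8.03. Past the last constant segment, IGLC7, 8 fragments between 23274464 and 23319117 were called, with 20 to 55 reads, all of them without an annotated gene. Among these, chr22:23300832-23302691, which starts 35.6 kb past IGLC7, had 55 reads and a score of 27.12. Its neighbours on both sides had 25 and 20 reads with scores of 7.57 and 5.26, both below the count on this 1860-bp fragment. Its 32-mers were 100% unique, and its end sequences are those printed above.

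Farther on, 5 fragments in RTDR1 (now RSPH14, a radial spoke protein of cilia), at 292 to 324 kb, had 15 to 21 reads and scores of 6.15 to 10.50. The last of the bait's contacts were 2 fragments in BCR, the gene broken in the BCR-ABL1 translocation, at 439 and 457 kb with 12 and 14 reads and scores of 5.53 and 7.57. Apart from the top-scoring fragment past IGLC7, the read counts were lower in each farther stretch, with some overlap between stretches.

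**Figure D3:**
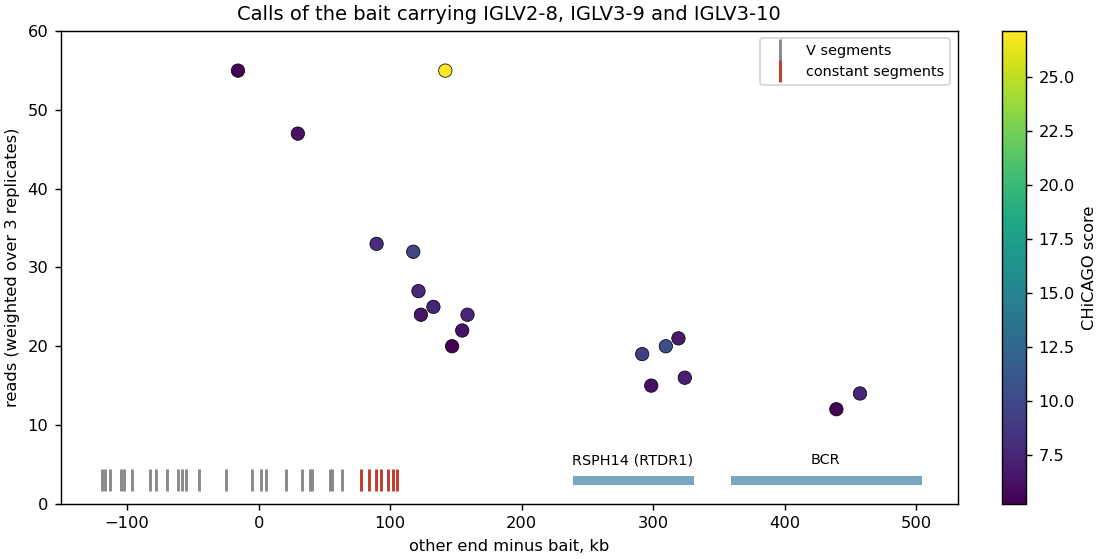
Reads of each of the 18 calls of the bait with IGLV2-8, IGLV3-9 and IGLV3-10 against the distance of the other end in kb, positive towards higher coordinates; colour is the CHiCAGO score, ticks are V and C segments, and blue bars are RSPH14 (listed as RTDR1) and BCR. The fragment at 142 kb, past the constant segments, has 55 reads while its neighbours have 20 and 25.

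The other lambda V bait, chr22:23194793-23203509 with the pseudogenes IGLV2-5 and IGLV3-4, had 4 calls and reached the same side. The fragment with IGLL5, IGLJ1, IGLC1, IGLJ2 and IGLC2 at chr22:23235426-23244475 had 23 reads and a score of 9.35. The next, with the IGLC3 and IGLC4 segments, had 25 reads and a score of 11.69, and the fragment at 23274464 past IGLC7 had 17 reads and a score of 8.25. Its 1 call to the lower side was the IGLV2-8 bait, with 35 reads and a score of 5.11. Both V baits thus had calls to the IGLC3 and IGLC4 fragment and to the fragment at 23274464.

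Promoters beyond the locus also reached these V baits. The bait listed for AC000029.1 and RTDR1, at chr22:23476911-23481106, called the IGLV2-8 bait with 21 reads and a score of 28.00, the highest of the window, at 319 kb. Seen from the IGLV2-8 bait the same pair had the same 21 reads and a score of 6.74. The bait listed for RAB36, a small GTPase gene, and RTDR1 called the IGLV2-8 bait with 22 reads and a score of 5.40 at 331 kb. In the annotation used, the outermost start of RTDR1 (RSPH14) lies on this RAB36 bait. The bait at 23476911 carries only the start of AC000029.1. The AC000029.1 bait called the IGLV2-5 bait with 5 reads and a score of 5.26. The bait with PPM1F and TOP3B, a phosphatase and a topoisomerase gene on the far side of the V segments, called the fragment past IGLC7 at 23300832 with 9 reads and a score of 6.61 over 986 kb. The AC000029.1 bait called a TOP3B fragment with 6 reads and a score of 9.91 over 1142 kb. Both of these long contacts had under 10 reads.

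Counted as possible pairs under 1 Mb, 12 of 2421 pairs of a listed bait and a fragment in the lambda span were called (0.496%), from 6 of 20 baits. Over all baits the share under 1 Mb was 1.12%, not matched for distance. ZNF280B, a zinc finger gene that lies among the V segments, had 2 calls of 14 and 19 reads to the neighbouring ZNF280A fragments. The G protein gene GNAZ had 1 call of 6 reads into the V region, at 928 kb, on a fragment without an annotated gene.

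Above the locus, the bait with RAB36 and RTDR1 called 3 fragments in BCR with 18 to 19 reads and scores of 5.08 to 6.17. GNAZ called chr22:23319118-23322953 with 16 reads and a score of 5.89. The remaining calls lay in the flank below the V segments. YPEL1 had 11 calls, the bait with PPM1F and PPM1F-AS1 10 and the bait with PPM1F and TOP3B 8. In the annotation used, the former carries the start of PPM1F-AS1 and the latter that of PPM1F, while TOP3B starts on the next fragment. Within 500 kb on the side of the locus, the PPM1F-AS1 bait called 0 of 112 possible fragments and the bait with PPM1F and TOP3B 0 of 113. These counts allow shares of up to 2.68% and 2.65%. Over all baits the shares were 3.78% under 100 kb, 2.81% from 100 to 250 kb and 1.16% from 250 to 500 kb. The limits lie among these shares, so no lack of calls is shown. Such limits for a count of 0, here and below, are 3 counts of the total and cover counting error only. All 10 calls of the PPM1F-AS1 bait ran to lower coordinates, away from the locus. The fragment chr22:22066075-22069326, in an intron of YPEL1, was reached from the PPM1F-AS1 bait with 28 reads and a score of 22.20, from the bait with PPM1F and TOP3B with 26 reads and a score of 14.02, and from YPEL1 with 49 reads and a score of 7.34. In all, 13 calls from 4 baits, YPEL1 among them, ended on YPEL1, a count not set against its number of fragments.

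MicroRNA genes sat on baits of this window, and their mature sequences are given because the bait names are all that the list says of them. The bait listed for PPIL2, MIR301B and MIR130B had 4 calls of 7 to 48 reads. In the annotation used, PPIL2 starts on the next fragment. Mature sequences are from RefSeq (GRCh38.p14), with the seed, bases 2 to 8, in capitals. MIR301B and MIR130B share the seed of their 3p arms, and MIR650, on the IGLV2-8 bait, has another.
hsa-miR-301b-3p: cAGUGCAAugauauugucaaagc
hsa-miR-130b-3p: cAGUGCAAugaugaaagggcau
hsa-miR-130b-5p: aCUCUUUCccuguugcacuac
hsa-miR-650: aGGAGGCAgcgcucucaggac

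In the heavy chain window, the only calls into the immunoglobulin genes came from TMEM121, a transmembrane protein gene 49.5 kb below IGHA2, the lowest constant segment. Its bait, chr14:105984888-106003752, had 3 calls and all ended in the V region, 736 to 752 kb away. The fragment at chr14:106728787-106731676 had 7 reads and a score of 5.19, its neighbour at chr14:106731677-106736915 with IGHV1-24 had 8 reads and a score of 6.62, and chr14:106742941-106750286 with the pseudogenes IGHV3-25 and IGHVIII-25-1 and the noncoding gene LINC00226 had 8 reads and a score of 6.68. The 3 fragments are among 7 in a stretch of 21.5 kb, and their 32-mers were 91.0%, 90.8% and 92.6% unique. IGHV1-24 has the octamer in its promoter window.

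No nearer fragment was called from TMEM121. Within 500 kb, 0 of 51 fragments below and 0 of 80 above were called, which allows shares of up to 5.88% and 3.75%. Over all baits the shares were 3.78% under 100 kb, 2.81% from 100 to 250 kb and 1.16% from 250 to 500 kb. Neither limit lies below all of these, so no lack of near calls is shown. Between the bait and the first fragment that was reached lie 146 fragments. The fragments above had a median of 59.1% unique 32-mers, against 93.4% below. From 500 to 1000 kb, 3 of 198 were called (1.52%), and over all baits the share was 0.150%. TMEM121 is described because of these same 3 calls, so no excess over all baits can be read from its share. Across the 16 listed baits within 1 Mb of the heavy chain span, TMEM121 alone reached it, with 3 of 1531 possible pairs (0.196%). Over all baits the share under 1 Mb was 1.12%, not matched for distance. None of the 3 calls had 10 reads.

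As an other end, TMEM121 was called by MTA1, a subunit gene of the NuRD chromatin remodelling complex, with 12 reads and a score of 5.60, and by the bait with CRIP1 and CRIP2 with 9 reads and a score of 5.40. These were the calls nearest to the locus from below.

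The other heavy chain calls joined genes below the locus. C14orf79 (now CLBA1) sent 8 of its 10 calls into the window, and PLD4, an exonuclease of endolysosomes, 7 of its 12. The bait with BRF1 and BTBD6 had 6. BRF1 encodes a subunit of the RNA polymerase III factor TFIIIB. The calls with the highest scores were from BRF1 and BTBD6 to the bait with BRF1 and PACS2 (21 reads, score 20.26), from CDCA4 to the same fragment (20 reads, 13.11), from BRF1 and BTBD6 to the bait with JAG2 and NUDT14 (13 reads, 11.13) and from the latter bait to chr14:105595616-105598821 (46 reads, 10.19). JAG2 encodes a Notch ligand.

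Calls converged on a few fragments. The fragment chr14:105518521-105523547, which holds exons of GPR132, a G protein-coupled receptor gene of immune cells, was reached by 6 baits with 9 to 42 reads. The bait fragment with BRF1 and PACS2 at chr14:105778656-105783471 and the fragment at 105595616 were reached by 4 baits each. In all, 11 calls from 7 baits ended on GPR132 and 13 from 8 baits on PACS2, baits of the same genes included. These counts were not set against the number of fragments on each gene. Of the 28 possible pairs among the 8 baits in the window, 8 were called (28.6%, 95% Wilson interval 15.3 to 47.1%), against 12.2% of bait pairs under 1 Mb over all GM12878 baits.

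**Figure D4:**
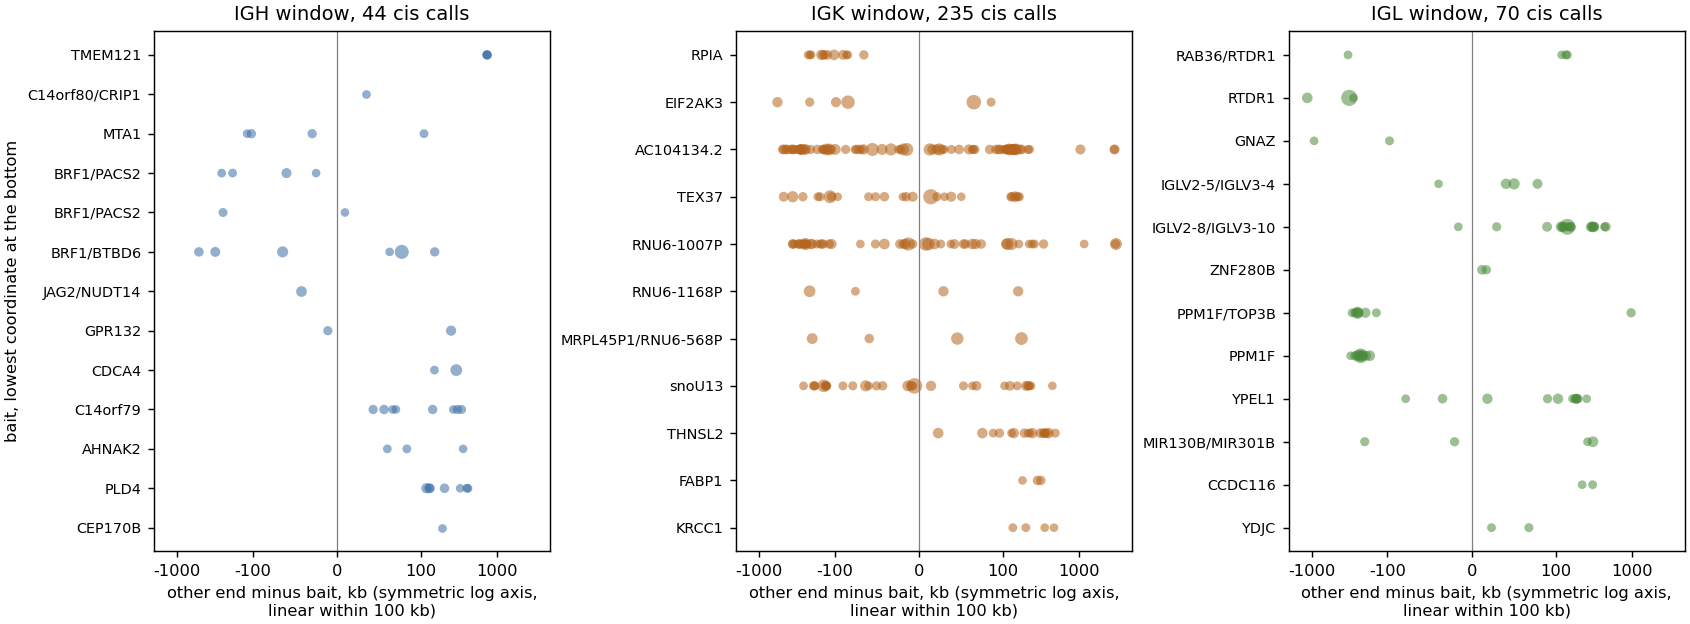
Each *cis*-chromosomal call by its bait (rows, ordered by coordinate) and the distance from bait to other end in kb on a symmetric log axis that is linear within 100 kb; point area grows with the CHiCAGO score. All 3 TMEM121 calls lie at 736 to 752 kb, the IGLV2-8 bait has 17 of 18 calls to the right, and AC104134.2 has 77 calls on both sides.

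In the kappa window, the calls formed a dense block below the constant segment. All 229 *cis*-chromosomal calls under 1 Mb lay between 88345796 and 89069900, and the block ended 86.8 kb short of IGKC, the single constant segment. Of 1457 possible pairs under 1 Mb between a listed bait and the kappa span, none was called, which allows a share of up to 0.206%. Over all baits 1.12% of pairs under 1 Mb were called, from 3.78% under 100 kb to 0.150% from 500 to 1000 kb. The 1457 pairs were not matched for distance, so no lack of calls can be read from this count. Of the 28 possible pairs among the 8 baits in the window, 17 were called (60.7%, 95% Wilson interval 42.4 to 76.4%), against 28.6% in IGH, 6 of 29 under 1 Mb in IGL (20.7%) and 12.2% of such pairs over all baits. These shares were not matched for distance.

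The bait with AC104134.2, a noncoding RNA gene, had 77 calls, and 15 of 15389 baits (0.0975%) had as many or more. This gene starts between TEX37 and EIF2AK3 and, in the annotation used, overlaps EIF2AK3. RNU6-1007P, a U6 pseudogene, had 50 calls, snoU13, a predicted small nucleolar RNA gene, 32, and TEX37, a testis gene, 25. AC104134.2 and RNU6-1007P gave 127 of the 236 calls (53.8%), and 29 other ends were common to them, 37.7% of those of AC104134.2 and 58.0% of those of RNU6-1007P. AC104134.2 reached to both sides: within 500 kb, 40 of 137 fragments below (29.2%) and 34 of 148 above (22.97%) were called, with a median of 11 reads per call.

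The protein-coding genes between the AC104134.2 bait and the kappa segments are EIF2AK3 and RPIA. EIF2AK3 encodes PERK, a kinase that slows translation when unfolded protein builds up in the endoplasmic reticulum, and RPIA an isomerase of the pentose phosphate pathway. In all, 53 calls from 6 baits ended on EIF2AK3, 30 of them from AC104134.2 with 9 to 38 reads, and 9 from 5 baits on RPIA. The 6 baits include those listed for EIF2AK3 and for RPIA, and calls to the RPIA bait fragment count for both genes. Some fragments counted for EIF2AK3 also lie in AC104134.2. On the other side of the block, 17 calls from 8 baits, THNSL2 among them, ended on THNSL2. These counts were not set against the number of possible fragments on each gene, so they show no preference for a gene. The bait listed for EIF2AK3, at chr2:88919169-88930322, called RPIA with 16 reads and a score of 22.11, AC104134.2 with 15 reads and a score of 18.32, and TEX37 with 8 reads and a score of 8.85. In the annotation used, the outermost start of EIF2AK3 lies on the RPIA bait, so that fragment carries starts of both genes. All 12 calls of RPIA ran down, away from the kappa genes, where 8.16% of fragments within 500 kb were called. Towards the kappa genes 0 of 133 were called, which allows up to 2.26%. Over all baits the shares ran from 3.78% under 100 kb to 1.16% from 250 to 500 kb, so no lack of calls is shown. The median share of unique 32-mers was 93.7% below and 69.5% above.

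The RNU6-1007P fragment was reached by 9 baits, AC104134.2 by 7, THNSL2 by 6 and TEX37 by 5. THNSL2, below the window, sent 18 of its 38 calls into it. FABP1, the fatty acid carrier of liver, sent 3, and KRCC1 4. The pair of TEX37 and AC104134.2, 14.2 kb apart, had 57 reads, with a score of 24.49 seen from TEX37. The highest score of the window, 25.51 on 51 reads, was between snoU13 and a fragment 5.19 kb away, and the ends of that call share a stretch of at least 100 bp at 95% identity. In all, 2 calls of this window and none of the others had such ends.

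A few kappa calls ran over 1 Mb, and they came from AC104134.2 and RNU6-1007P alone. There were 6 of them, on 5 other ends, with 4 to 6 reads and scores of 5.19 to 13.44. The fragment chr2:89887750-89888990 was reached from AC104134.2 with 6 reads and a score of 8.44 at 1048 kb and from RNU6-1007P with 4 reads and a score of 5.19 at 1177 kb. It is the only listed fragment of the kappa span. It lies between the proximal and distal groups of V segments, just short of the distal IGKV2D-40, carries no annotated segment, and its 32-mers are 100% unique. A 200000-bp gap of hg19 lies between IGKV2-40 and this fragment, so the distances of these calls include the size hg19 gives it. The 4 other ends lie between 91761911 and 91805923, about 3 Mb away, with 76.1 to 87.9% unique 32-mers. The top score there was 13.44, from RNU6-1007P on 6 reads.

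The single *trans*-chromosomal call among the 350 joined the bait with DHX32 and FANK1 on chromosome 10 to chr2:89102292-89121710, a fragment with ANKRD36BP2 and MIR4436A near IGKC, with 4 reads and a score of 9.66. That bait had 55 calls in all. Over all GM12878 calls, 288 were *trans*-chromosomal.

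Pairs called from both of their ends numbered 14 in IGK, 2 in IGL and none in IGH, so the 350 calls were 334 distinct fragment pairs. The list gives read counts of calls and no library totals, and the depth of each library was not used here. With a single list, a contact that was not called cannot be told apart from one that was too weak, too poorly placed or not captured.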

How the data were processed

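Per the labels and the study's methods, libraries of 3 GM12878 biological replicates were mapped to hg19 with HiCUP and Bowtie 1.1.0, and CHiCAGO scored the replicates together; the first replicate was of poorer quality per the methods. The authors deposited for each call a CHiCAGO score and a read count, which is a weighted mean over replicates rounded to whole numbers and so treated as a score, not as raw counts. The captured bait list and the mouse files were not used here. The windows, members and lists were chosen with earlier results of these data known.

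A fragment was in a window if any base overlapped it. The hg19 *Hin*dIII digest, 32-mer uniqueness within 500 bp of fragment ends, fragment pairs under 1 Mb (adjacent fragments left out) and shared sequence (blastn 2.17.0, at least 100 bp at 95%) were computed in Python 3.11.15, and pair counting was tested on simulated data. Genes were those of GENCODE 44 lifted to hg19. Baits named were those with immunoglobulin segments, and per locus the 5 others with most calls, the 5 highest scores, the 5 most shared other ends and *trans*-chromosomal calls. The rest were named after their values were seen. Intervals are 95% Wilson, or binomial for medians, and the limit for a count of 0 is 3 counts of the total. Calls came from a pooled list, so no test was made.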

Additional observations from a re-analysis of the deposited data

How the results depend on the processing

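With a score of at least 10, calls fell to 4 in IGH, 42 in IGK and 11 in IGL, the share of possible pairs to 0.116%, 0.697% and 0.216%, and median distances were 70.7 kb in IGH and 113 kb in IGK. With at least 10 reads, IGK kept 112 calls with a median distance of 65.5 kb and 1.91% of possible pairs. With the windows narrowed to the annotated segments, calls were 3 in IGH, 2 in IGK and 28 in IGL, shares were 0.196%, 0% and 0.898%, and median distances were 740.0 kb in IGH and 1112 kb in IGK. The cause was not tested beyond the smaller set each setting leaves. The other 35 values of number, distance and share stayed within 1.5 times the count or within the interval of the value reported, among them all 9 from the browser list, all 9 without calls whose ends share sequence, and all 9 with the fragment midpoint in the window, a setting chosen after seeing the data. No paired analysis was possible because the replicates were scored together and no test was made. The share of calls between baits moved too, to 75% in IGH and 38.1% in IGK with a score of at least 10 and to 12.6% in IGK in the browser list. The browser list holds 222 IGK calls, as many as there are distinct pairs, so it does not repeat pairs called from both ends. Low reads limit the long contacts: all 3 calls into the heavy chain span and both into the kappa span had under 10.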
